A study of Homo sapiens with 8 samples.

Results

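Amino acid transporters of the plasma membrane were examined in Alexander1 cells, an established epithelial line from a human hepatocellular carcinoma. The set held 10 genes of the 58206 in the count table: SLC6A14, SLC1A4, SLC1A5, SLC3A2, SLC7A1, SLC7A5, SLC7A6, SLC38A1, SLC38A2 and SLC38A4. SLC6A14 was chosen by its measured difference between the 2 groups of libraries, and the other 9 were added as carriers of related substrates with their values known. For all 10, the difference between the groups is therefore given as a description without a p-value, with its standard error where a log2 fold change is given. Where members are counted as called, nothing is read from the count. The parental group (4 libraries) is the line as obtained, labelled wt (Axin1 -), whose Axin1 lacks the region that binds the kinase GSK3, with a Wnt pathway described as constitutively active. The second group (4 libraries, labelled Axin1 +) is a derivative that received Axin1 by VSVG retrovirus and was put through clonal selection with hygromycin B. How many clones it holds is not given, and neither is whether replicates were separate cultures, so p-values measure only the spread between these libraries.

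AXIN1 was looked at first because it is the gene the derivative was made to restore. Its mRNA stood at 52.4 CPM ± 3.49 (SD, n = 4) in parental and 45.4 CPM ± 5.13 (SD, n = 4) in the other libraries. CPM is a count relative to the scaled total of its library. The log2 fold change was -0.21 (SE 0.12, adjusted p = 0.267 in edgeR's quasi-likelihood test). AXIN1 mRNA was not higher in the libraries labelled Axin1 +. Whether the introduced Axin1 would be counted under this gene is not known here, so these counts cannot tell whether Axin1 was restored. The second group is called restored-labelled throughout, with every direction resting on the labels. Values of single libraries are listed from replicate 1 to replicate 4. Library totals ran from 11232951 to 15263761 counts in the parental and from 12372436 to 26400782 in the restored-labelled group. All 9 hepatocyte markers examined averaged at least 1 CPM, among them SERPINA1 and APOB, while the fibroblast list summed to at most 4.59 CPM in any library. The hepatocyte list summed to 23427 to 27289 CPM in parental and 18119 to 21602 CPM in restored-labelled libraries. Within it SERPINA1 and TF were lower and FGB and TTR higher in restored-labelled libraries (edgeR adjusted p under 0.05). The epithelial list summed to 4146.8 to 5137.6 CPM in parental and 3464.5 to 5088.8 CPM in restored-labelled libraries, with EPCAM near 0. The endothelial list summed to 4.58 to 6.77 CPM in parental and 34.1 to 58.5 CPM in restored-labelled libraries, almost all of it PECAM1, with VWF, CDH5 and KDR near 0. The leukocyte list, 421 to 949 CPM in parental and 672 to 920 CPM in restored-labelled libraries, was almost all LYZ, with CD3E at 0 and PTPRC near 0. The part of these markers in the results below was not tested. Restored-labelled replicate 1 lay nearest to the parental libraries on the first principal component and parental replicate 1 stood apart on the second, and calls of named genes that changed without either are given beside the results.

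Amino acids cross the plasma membrane on carriers that differ in what drives them. Sodium-coupled carriers such as SLC6A14 and the SLC38 family load the cell against a gradient, while exchangers such as SLC1A5 and the heterodimers built on SLC3A2 trade one amino acid for another. Together they are known to supply glutamine and essential amino acids, to which the kinase complex mTORC1 responds. Several of them are often raised in tumours, and SLC6A14 is known mainly from lung and gut epithelia, with little expression in normal liver.

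The promoter of SLC6A14 and that of SLC7A5, the light chain of the leucine exchanger, are shown because the first was at 0 in all parental libraries and the second was abundant in all 8. Each is the 250 bases before the transcription start from RefSeq (GRCh38.p14), written in the direction of transcription, with CG dinucleotides in capitals. They lie at chrX:116436356-116436605 on the plus strand and chr16:87869508-87869757 on the minus strand.
SLC6A14: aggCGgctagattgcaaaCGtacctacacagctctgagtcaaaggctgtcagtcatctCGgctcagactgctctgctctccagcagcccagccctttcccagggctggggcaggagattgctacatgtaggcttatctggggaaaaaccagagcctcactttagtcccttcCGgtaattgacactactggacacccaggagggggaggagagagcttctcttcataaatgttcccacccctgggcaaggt
SLC7A5: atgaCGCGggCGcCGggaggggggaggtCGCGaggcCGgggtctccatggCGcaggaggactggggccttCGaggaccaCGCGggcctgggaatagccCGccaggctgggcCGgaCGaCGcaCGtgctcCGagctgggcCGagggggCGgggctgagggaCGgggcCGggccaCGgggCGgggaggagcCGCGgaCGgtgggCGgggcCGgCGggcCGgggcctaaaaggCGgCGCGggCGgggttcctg
The SLC6A14 window held 4 CG dinucleotides, the fewest of the 10 members. Its ratio of observed to expected CG was 0.213, higher than in 24.2% of the 35116 promoters of the table. SLC7A5 had 34 CG dinucleotides and a ratio of 0.948, higher than in 86.8% of promoters. Among the other 8 members the ratio ran from 0.465 in SLC38A1 to 0.988 in SLC7A6. SLC38A4, also at 0 in all parental libraries, had a ratio of 0.664, above that of SLC38A1, which was expressed in all libraries. Whether CG content goes with the level of these genes was not tested. The E-box CACGTG, a site that MYC and related factors recognise, occurred in the SLC7A5 window and in no other member's (either strand, present in 6.34% of all promoters). Neither TGATGNAA, the core of the composite site bound by ATF4 and its partners, nor CTTTGAT, a TCF/LEF core, occurred in these windows on either strand, and they are present in 3.14% and 2.26% of promoters. These are letter matches in short windows and say nothing of binding. Only the first start listed for each member was used, and other starts were not examined. The windows of SLC3A2, SLC38A1 and SLC38A4 lie inside the gene spans given below, so they may not be the promoters in use.

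SLC6A14 was detected only in the restored-labelled libraries. The gene (ENSG00000268104, chromosome X, 116436622 to 116461458, plus strand) encodes a sodium- and chloride-coupled importer of neutral and cationic amino acids. It had 0 counts in each of the 4 parental libraries, where 3 counts, the upper limit for a count of 0 at 95% confidence, correspond to 0.203 to 0.267 CPM. The restored-labelled libraries held 176, 54, 57 and 129 counts, or 6.31, 4.46, 2.81 and 5.04 CPM. Every restored-labelled value lay above the parental limit, and the mean was 4.65 CPM ± 1.45 (SD, n = 4), at least 19.6-fold higher when each parental library is set at 3 counts. Replicate 1, the restored-labelled library nearest to the parental ones on the first principal component, had the highest SLC6A14 value. Averaged over all 8 libraries, with the parental zeros included, SLC6A14 was low on the scale of the transcriptome. Of the tested genes, 15.4% lay below that average. A higher level in every cell and a larger share of expressing cells cannot be told apart in bulk RNA. Limits and intervals here cover counting error only.

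**Figure D1:**
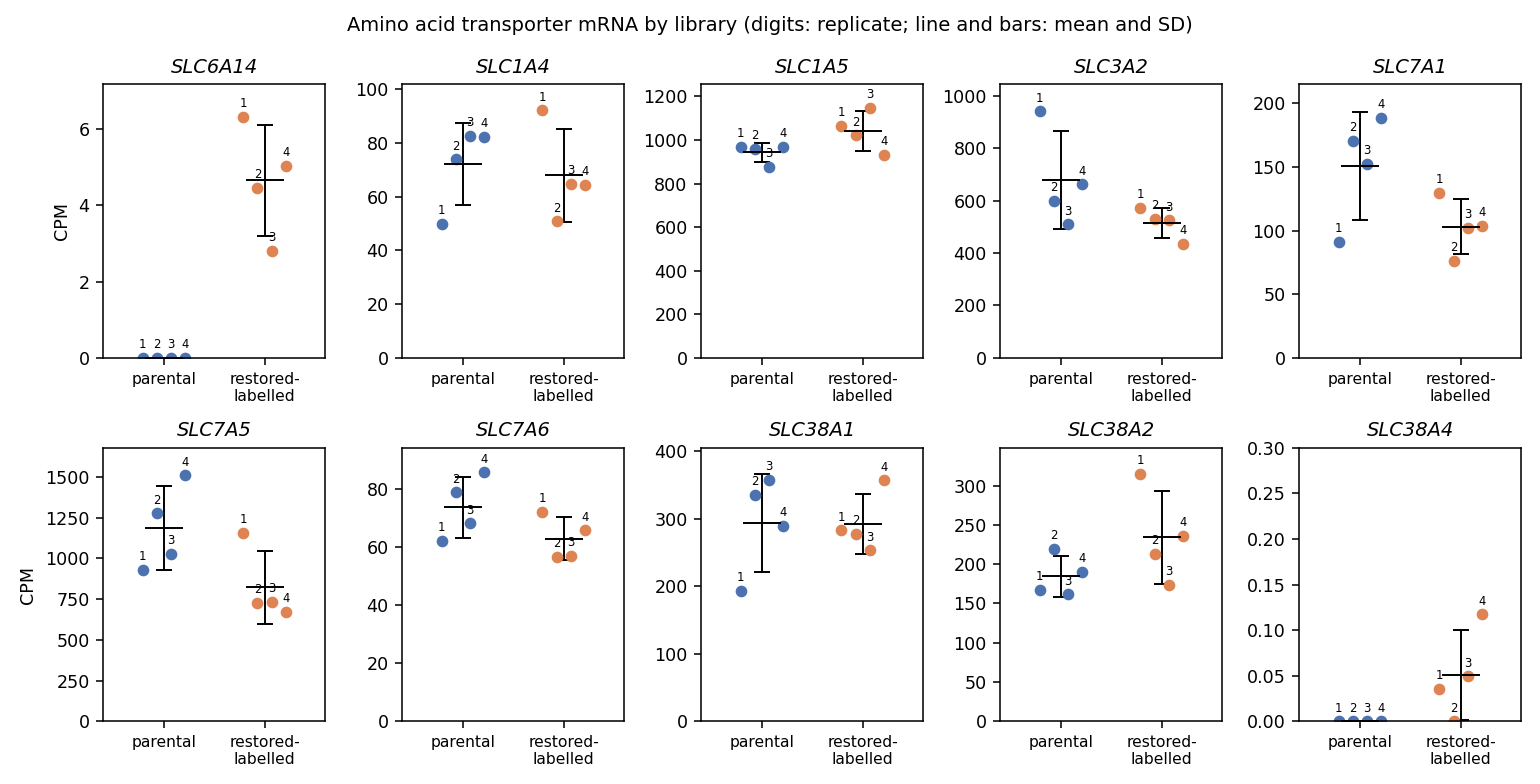
Level of each transporter in CPM (linear axes from 0) in the 4 parental and 4 restored-labelled libraries. Points are libraries numbered by replicate, and the line and bars are the group mean and SD. SLC6A14 is at 0 in all parental libraries and between 2.81 and 6.31 CPM in the restored-labelled ones, while every other panel shows overlapping groups.

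Of the 10 members, 9 passed the filter on low counts and 1 of those, SLC6A14, had an adjusted p under 0.05 in the fit to the whole table, where 19.2% of the 14289 genes tested were called (10.4% higher and 8.77% lower in restored-labelled libraries). SLC6A14 was also the only tested member whose groups did not overlap, against 23.9% of all genes. Because members were chosen with this contrast known, nothing is read from these counts. The median log2 fold change of the 9 tested members was -0.09, against 0.00 for all genes tested, with 3 positive and 6 negative values.

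The heterodimeric exchangers came next in the order of roles. SLC3A2 (ENSG00000168003, chromosome 11, 62856102 to 62888875) encodes the heavy chain that carries the SLC7 light chains to the plasma membrane. It read 940, 599, 510 and 661 CPM across the parental libraries, against 571, 531, 524 and 434 CPM across the restored-labelled ones. Parental replicate 1 was far above the rest, and the groups overlapped. The means were 678 CPM ± 186 and 515 CPM ± 58.0 (SD, n = 4 each), which gives a log2 difference of -0.40 (SE 0.19). Without parental replicate 1 and restored-labelled replicate 1 it was -0.25 (SE 0.14). Here and below, leaving out both of these libraries was chosen after seeing the data, so nothing is read from the values it gives.

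SLC7A5 (ENSG00000103257, chromosome 16, 87830023 to 87869488), the light chain that exchanges glutamine for leucine and other large neutral amino acids, read 931, 1276, 1026 and 1509 CPM across the parental libraries, against 1154, 728, 731 and 672 CPM across the restored-labelled ones. Restored-labelled replicate 1 fell among the parental values and the other restored-labelled libraries lay below all of them. The means were 1186 CPM ± 260 and 821 CPM ± 224 (SD, n = 4 each), with a log2 fold change of -0.53 (SE 0.21). It was -0.74 without restored-labelled replicate 1, -0.63 without parental replicate 1 and -0.84 (SE 0.15) without both. Its exons overlap an unnamed gene on the opposite strand (ENSG00000260466) over 271 bases.

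SLC7A6 (ENSG00000103064, chromosome 16, 68264516 to 68301823) is a second light chain of SLC3A2, which exchanges cationic for neutral amino acids. Its values were 62.0, 78.7, 68.1 and 85.6 CPM across the parental libraries, against 72, 56.5, 57.0 and 65.6 CPM across the restored-labelled ones. The groups overlapped, and their means were 73.6 CPM ± 10.6 and 62.8 CPM ± 7.45 (SD, n = 4 each). Its log2 fold change was -0.23 (SE 0.14), or -0.37 without both libraries of replicate 1. Exons of SLC7A6OS on the opposite strand overlap those of SLC7A6 over 3371 bases, and the use of strand in counting is not given, so these counts may mix both genes.

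Per kilobase of exon, the heavy chain was less abundant than SLC7A5 and more abundant than SLC7A6 in all 8 libraries. The ratio of SLC3A2 to SLC7A5 was 0.925, 0.430, 0.455 and 0.402 in parental replicates 1 to 4. In restored-labelled replicates 1 to 4 it was 0.453, 0.669, 0.657 and 0.592. Parental replicate 1 had the highest ratio of all, so the groups overlapped, and 3 of the 4 restored-labelled libraries lay above the other 3 parental ones. The ratio of SLC7A5 to SLC7A6 was 25.6 ± 1.97 in parental and 20.8 ± 3.79 in restored-labelled libraries (SD, n = 4 each), with overlapping groups.

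SLC1A5 and SLC1A4 encode related sodium-dependent exchangers of small neutral amino acids. SLC1A5, a main route for glutamine (ENSG00000105281, chromosome 19, 46774883 to 46788594), had the smallest SD relative to its mean of the members, in both groups. Its values were 969, 958, 877 and 968 CPM across the parental libraries, against 1066, 1021, 1148 and 932 CPM across the restored-labelled ones. Only restored-labelled replicate 4 fell within the parental range. The mean was 943 CPM ± 44.6 in parental and 1042 CPM ± 90.3 in restored-labelled libraries (SD, n = 4 each), and the log2 fold change was 0.14 (SE 0.12). Its exons overlap an unnamed opposite-strand gene (ENSG00000275719) over 780 bases, a gene with a mean of 2.02 CPM in parental libraries.

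SLC1A4 (ENSG00000115902, chromosome 2, 64988477 to 65023865), which prefers alanine, serine and cysteine, was far lower per kilobase of exon. It read 49.9, 73.9, 82.6 and 82.3 CPM across the parental libraries, against 92.0, 50.8, 64.6 and 64.4 CPM across the restored-labelled ones. The lowest value was parental replicate 1 and the highest restored-labelled replicate 1. The mean was 72.2 CPM ± 15.4 against 68.0 CPM ± 17.3 (SD, n = 4 each). The log2 fold change was -0.09 (SE 0.20) over all libraries and -0.41 (SE 0.13) without both libraries of replicate 1, and it turned to 0.032 without restored-labelled replicate 2.

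SLC7A1 (ENSG00000139514, chromosome 13, 29509410 to 29595688), the carrier of arginine and lysine, read 91.3, 170, 153 and 189 CPM across the parental libraries. The restored-labelled ones read 129, 76.2, 102 and 104 CPM. Parental replicate 1 lay among the restored-labelled values and the other parental libraries above them all. The mean was 151 CPM ± 42.2 against 103 CPM ± 21.7 (SD, n = 4 each). On the log2 scale the difference was -0.55 (SE 0.22), -0.73 without parental replicate 1 and -0.85 (SE 0.15) without both libraries of replicate 1.

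The 3 SLC38 genes, sodium-coupled importers of small neutral amino acids, are neighbours on chromosome 12 and were expressed very differently. SLC38A1 (ENSG00000111371, 46183063 to 46270017) read 194, 335, 357 and 290 CPM across the parental libraries, against 282, 278, 253 and 357 CPM across the restored-labelled ones. Its means, 294 CPM ± 72.5 and 293 CPM ± 44.7 (SD, n = 4 each), were the closest of any tested member, and its log2 fold change of -0.01 was far below its SE of 0.19, so no direction is given.

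SLC38A2 (ENSG00000134294, 46358189 to 46372867), known to be induced when amino acids run short, read 168, 219, 162 and 190 CPM across the parental libraries, against 315, 213, 174 and 236 CPM across the restored-labelled ones. Restored-labelled replicates 1 and 4 exceeded all parental libraries and the others did not. The mean was 185 CPM ± 26.1 against 234 CPM ± 59.4 (SD, n = 4 each). Its log2 fold change was 0.34 (SE 0.18), and 0.13 (SE 0.15) without both libraries of replicate 1.

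SLC38A4 (ENSG00000139209, 46764761 to 46832408), a carrier typical of differentiated liver, was close to undetected. It had 0 counts in every parental library and 1, 0, 1 and 3 counts in restored-labelled replicates 1 to 4, so it was not tested and no fold is given.

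**Figure D2:**
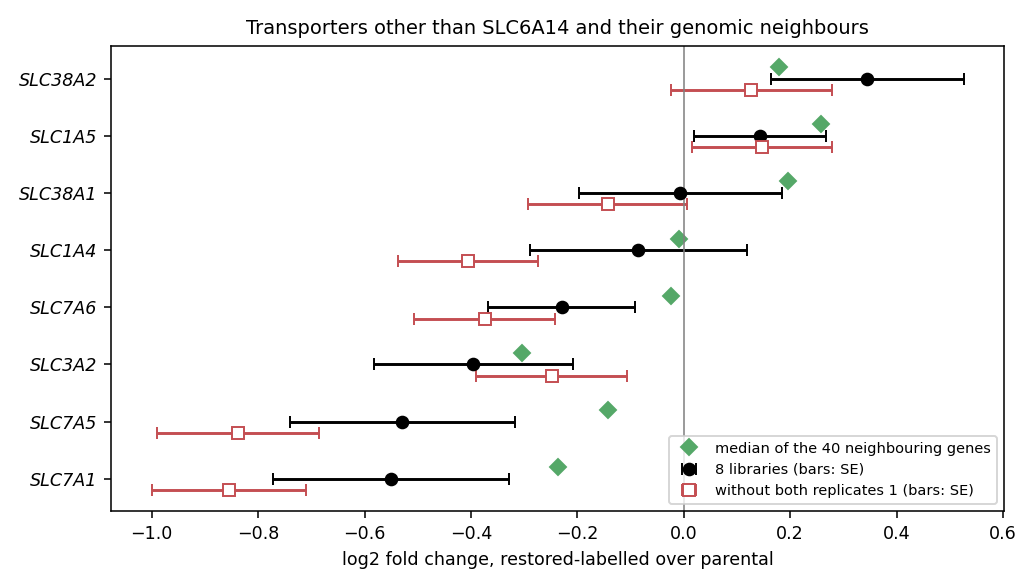
Log2 fold change, restored-labelled over parental, of the 8 tested members other than SLC6A14, with SE over all 8 libraries (black) and without both libraries of replicate 1 (red, open), beside the median of the 40 nearest tested genes (green). SLC7A1 and SLC7A5 move from -0.55 and -0.53 to -0.85 and -0.84 when those 2 libraries are left out. The removal was chosen after seeing the data. For both genes those libraries held the lowest parental and the highest restored-labelled value, so leaving them out had to widen the difference.

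The libraries of replicate 1 stood at the edge of many of these groups. Restored-labelled replicate 1 had the highest value of its group in 7 of the 9 tested members, and parental replicate 1 the lowest of its group in 5 of the 8 members detected there. Besides SLC6A14, SLC7A1 and SLC7A5 were called lower without parental replicate 1 (3 members in all, beside 24.1% of genes called). SLC7A5 alone joined SLC6A14 without restored-labelled replicate 1 (2 members, beside 22.0% of genes). Without both, SLC1A4, SLC7A1, SLC7A5 and SLC7A6 were called lower (5 members in all, beside 32.3% of genes). The share of all genes called was larger in each of these refits too. Members were chosen with this contrast known, and leaving out both libraries was added after seeing the data. Nothing is therefore read from these calls.

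Compared per kilobase of exon, so that genes of different length can be set side by side, 3 genes made up most of the set's mRNA. SLC1A5 stood at 283 CPM per kb ± 13.4 in parental and 313 ± 27.1 in restored-labelled libraries (SD, n = 4 each), the highest of the set in both. SLC7A5 followed at 250 ± 54.8 and 173 ± 47.2, and SLC3A2 at 131 ± 35.9 and 99.5 ± 11.2. SLC1A5 and SLC7A5 overlapped in the parental group and did not in the restored-labelled group, where the lowest SLC1A5 value was 280 and the highest SLC7A5 value 243. SLC38A1, SLC38A2 and SLC7A1 came next in parental libraries, at 29.3, 28.0 and 19.6 CPM per kb. Neighbours in that order overlapped from SLC38A1 down to SLC7A6. SLC38A2 passed SLC38A1 in the restored-labelled means (35.5 against 29.2), again with overlapping values. SLC6A14 reached 1.03 ± 0.322, below SLC7A6 at 8.27 ± 0.982.

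The ratio of SLC1A5 to SLC7A5 per kb was 1.48, 1.07, 1.22 and 0.914 in parental replicates 1 to 4 and 1.32, 2.0, 2.24 and 1.97 in restored-labelled replicates 1 to 4. Restored-labelled replicate 1 lay within the parental range and the other restored-labelled libraries above it. As a share of the summed level of the 10 genes, SLC1A5 took 37.3% ± 2.16 in parental and 46.0% ± 4.18 in restored-labelled libraries, and SLC7A5 took 32.6% ± 4.76 and 25.1% ± 3.83 (SD, n = 4 each). The sum itself was 761 CPM per kb ± 68.7 and 682 ± 77.9 (SD, n = 4 each), with overlapping groups. SLC6A14 made up 0.151% ± 0.0419 of it in restored-labelled libraries.

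**Figure D3:**
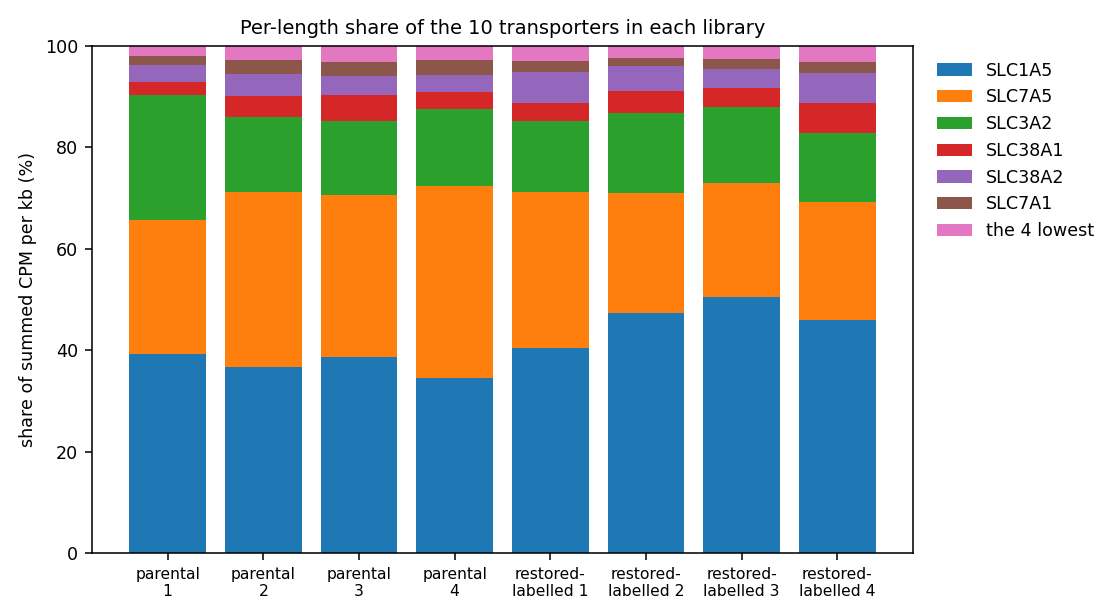
Share of each transporter in the summed CPM per kb of the 10 genes, in each library (stacked bars, percent). SLC1A5, SLC7A5 and SLC3A2 fill most of every bar, and SLC1A5 averages 37.3% in parental and 46.0% in restored-labelled libraries.

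Each member was set beside the 40 tested genes nearest to it, 20 on each side by gene start. The neighbours of SLC6A14 had a median log2 fold change of 0.15, with 6 of the 40 called higher and 4 lower. Of all genes tested 10.4% were called higher and 8.77% lower, and nothing is read from the counts in this window. Some of the neighbours, named here after their values were seen, changed strongly. COL4A5, a collagen IV chain gene about 8.0 Mb before SLC6A14, had 0 counts in all parental libraries as SLC6A14 did, and 0.717, 3.80, 3.79 and 3.86 CPM in the restored-labelled ones. VSIG1 fell from 6.20 to 0.370 CPM, PAK3 fell from 10.2 to 1.11 CPM, and the tight junction gene CLDN2 rose from 1.20 to 5.86 CPM (edgeR adjusted p = 0.00104, 0.00270 and 0.00164). The nearest ones, PLS3 and CT83, were at 0.33 (SE 0.25) and 0.29 (SE 0.19) on the log2 scale and did not pass (edgeR adjusted p = 0.377 and 0.30). Both were detected in both groups, at 187 and 235 CPM for PLS3 and 11.4 and 14.0 CPM for CT83. For SLC3A2, 34 of the 40 neighbours were negative with a median of -0.30, close to its own -0.40. For SLC7A5, 29 of 40 were negative with a median of -0.14, and for SLC7A1 25 of 40 with a median of -0.24. Around SLC1A5, 31 of 40 were positive with a median of 0.26, above its own value. In 7 of these 8 members the sign matched that of the neighbours' median, SLC38A1 being the exception, and member minus median ran from -0.39 in SLC7A5 to 0.17 in SLC38A2. The medians beside SLC1A4 (-0.0086) and SLC7A6 (-0.024) were near 0, and the windows of SLC38A1 and SLC38A2 share most genes. Little can therefore be read from the count of matching signs. The part of the neighbourhood in these values was not tested.

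Among the 18 different genes that adjoin a member and are not members, 3 were called (16.7%, near the 19.2% of all genes), so their number is no result about these neighbourhoods. CA5A, the mitochondrial carbonic anhydrase gene beside SLC7A5, fell from 1.68 to 0.0986 CPM (log2 fold change -4.22, SE 0.55, edgeR adjusted p = 0.000714). SLC22A10, beside SLC3A2, fell from 4.94 to 0.703 CPM (-2.79, SE 0.33, edgeR adjusted p = 0.000363). AMIGO2, beside SLC38A4, rose from 18.6 to 64.8 CPM (1.80, SE 0.27, edgeR adjusted p = 0.00143).

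**Figure D4:**
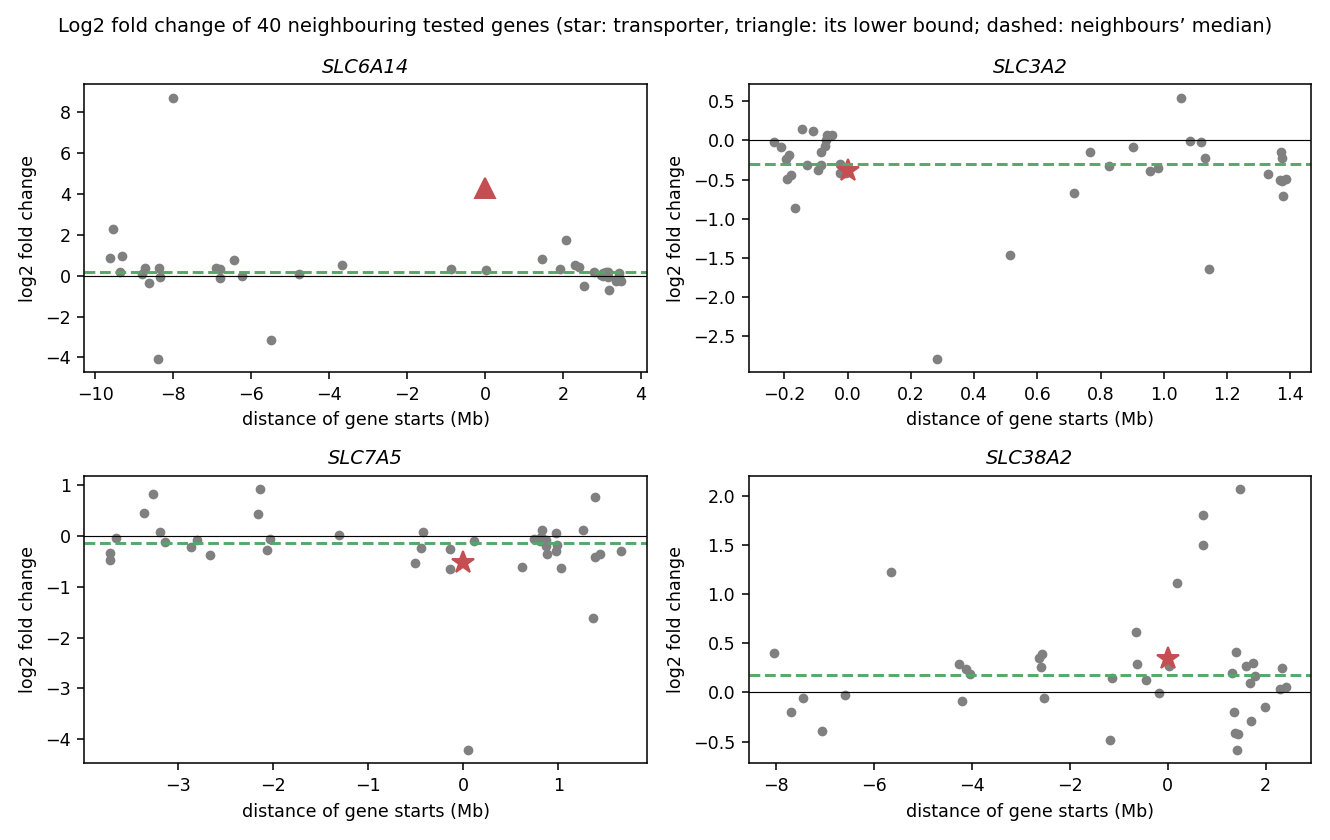
Log2 fold change, restored-labelled over parental, of the 40 tested genes nearest to SLC6A14, SLC3A2, SLC7A5 and SLC38A2 against the distance between gene starts in Mb. The star is the transporter, the triangle for SLC6A14 is its lower bound against 3 counts, and the dashed line is the neighbours' median (0.15, -0.30, -0.14 and 0.18).

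Genes most like SLC6A14 over the 8 libraries were sought by the root-mean-square difference of standardised log2 CPM, a measure dominated by the step between the groups. SLC7A7, which encodes a light chain of SLC3A2 that exports cationic amino acids, had a difference of 0.0931. VMP1, TRIM29, CALB1 and GJA1 were at 0.0971 to 0.107, close enough that nothing is read from the order of the 5. SLC7A7 read 0.890, 0.745, 0.802 and 0.930 CPM across the parental libraries, against 17.3, 11.6, 10.7 and 10.4 CPM across the restored-labelled ones. The groups did not overlap and restored-labelled replicate 1 was the highest, a likeness to SLC6A14 by which SLC7A7 was picked out.

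Other transporters of amino acids, on the plasma membrane or in lysosomes, formed a list of 37 genes, of which 24 were tested. Of these, 4 rose and 5 fell at an adjusted p under 0.05, and the median log2 fold change was -0.27. That is 37.5% of those tested, beside 19.2% of all genes tested (10.4% higher and 8.77% lower). This list and those below were chosen with earlier results of these data known, so nothing is read from their shares. The total of 9 came down to 5 without parental replicate 2 and to 5 without restored-labelled replicate 4. SLC7A7 rose by 3.88 on the log2 scale (SE 0.26, edgeR adjusted p = 8.4e-06). SLC1A2, a glutamate importer known from astrocytes and liver, rose from 0.388 to 3.05 CPM (log2 fold change 2.95, SE 0.36, edgeR adjusted p = 0.000446). The taurine carrier SLC6A6 rose from 28.2 to 50.9 CPM (0.85, SE 0.13, edgeR adjusted p = 0.00158), and the glycine carrier SLC6A9 fell from 22.5 to 7.60 CPM (-1.56, SE 0.16, edgeR adjusted p = 0.000137). In these 4 genes the groups did not overlap. The other called genes were named after their values were seen. SLC6A19, an apical importer of neutral amino acids, fell from 6.17 to 0.284 CPM (-4.30, SE 0.76), although parental replicate 1 stood at 0.890 CPM, close to the 0.753 CPM of restored-labelled replicate 1. The other parental libraries read 5.79 to 9.14 CPM and the other restored-labelled ones 0.0986 to 0.165 CPM. Over the remaining libraries, the log2 fold change of SLC6A19 was -5.59 without restored-labelled replicate 1, -4.65 without parental replicate 1 and -5.95 without both. The glutamate carrier SLC1A3 fell (-1.62, SE 0.38) and the lysosomal arginine sensor SLC38A9 rose (0.71, SE 0.18). Both calls were lost without parental replicate 2 (-1.37 and 0.70) or restored-labelled replicate 4 (-1.61 and 0.59). The lysosomal exporter SLC66A1 fell (-0.57, SE 0.17), a call lost without parental replicate 2 or restored-labelled replicate 1, 3 or 4 (-0.61 to -0.49). The cystine exchanger SLC7A11, another partner of SLC3A2, was at the threshold (-0.46, SE 0.15, edgeR adjusted p = 0.04999). That call was lost when any 1 of replicates 2, 3 and 4 of either group was left out (-0.53 to -0.35).

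**Figure D5:**
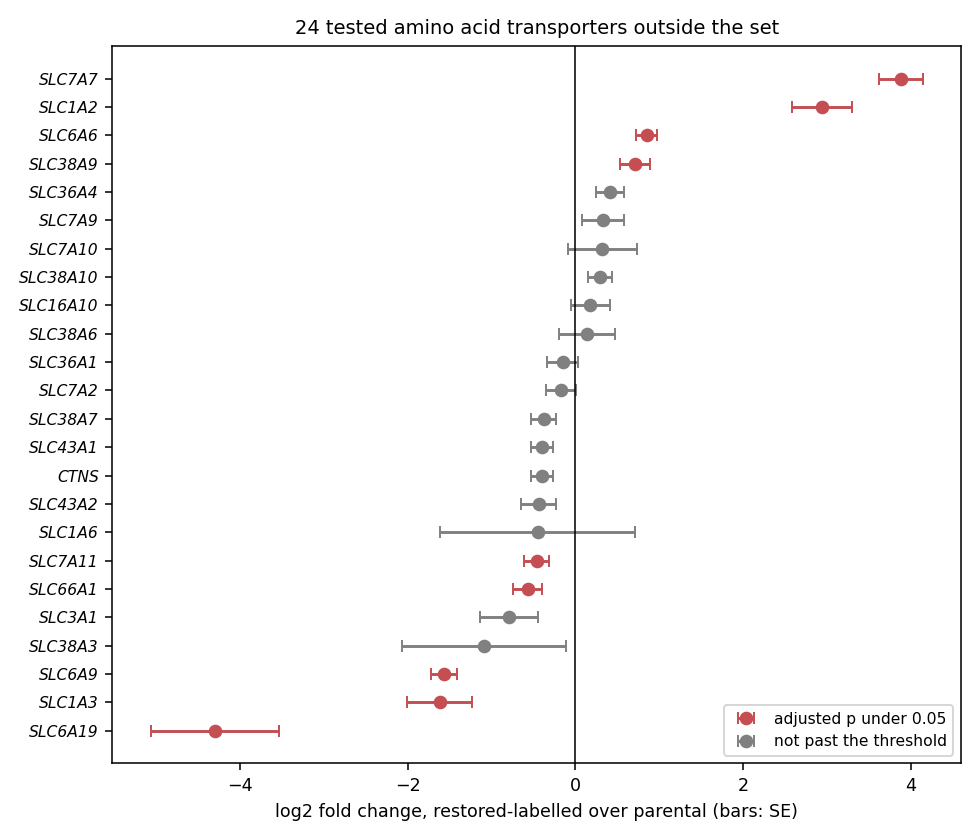
Log2 fold change with SE, restored-labelled over parental, of the 24 tested amino acid transporters outside the set. Red points passed an adjusted p under 0.05, with SLC7A7 (3.88) and SLC1A2 (2.95) farthest to the right and SLC6A19 (-4.30) farthest to the left.

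Carriers of the inner mitochondrial membrane were listed as 12 genes and tested as 10, whose median log2 fold change was 0.01. The serine carrier SFXN1 rose (0.83, SE 0.13, edgeR adjusted p = 0.00175) and SLC25A29, a carrier of basic amino acids, fell (-1.04, SE 0.20, edgeR adjusted p = 0.00633). SLC25A44 (0.34, SE 0.13) and SFXN3 (-0.25, SE 0.16) did not pass, though SLC25A44 passed without restored-labelled replicate 2 (0.44) and SFXN3 without restored-labelled replicate 1 (-0.44).

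Genes of the ATF4 response, which is switched on when amino acids are scarce and is known to raise SLC7A5, SLC3A2 and SLC38A2, were tested in 28 of 28 cases, with a median of -0.12. In the edgeR fit 6 fell and 0 rose, 21.4% of the list. Among all genes 19.2% were called in either direction and 8.77% were called lower. The counts for the list were 7 and 0 at an unadjusted p under 0.05, 7 and 0 with DESeq2 and 5 and 0 with limma-voom. PYCR1, of proline synthesis (-0.64, SE 0.14), and CTH, of cysteine synthesis (-0.58, SE 0.13), fell too (edgeR adjusted p = 0.0112 and 0.0119). ALDH1L2, of mitochondrial folate metabolism, fell from 18.0 to 3.62 CPM (-2.27, SE 0.54, edgeR adjusted p = 0.0159). That call was lost without restored-labelled replicate 4 (-2.04), and the change was -3.39 without restored-labelled replicate 1, which stood at 9.40 CPM. SHMT2 fell (-0.44, SE 0.12), a call lost without parental replicate 2 or 3 or restored-labelled replicate 1, 2 or 4 (-0.43 to -0.40). The other called genes were SLC7A11 and TRIB3, a pseudokinase gene that fell by 0.37 on the log2 scale (SE 0.12), each lost in 10 of 17 refits. For TRIB3 these included the removal of any 1 library but parental replicate 1 (-0.44 to -0.30). The count of called genes was 2 without restored-labelled replicate 4 and 3 without parental replicate 2 or 3 or restored-labelled replicate 2. Without both libraries of replicate 1 the count was 11, with 10 lower and 1 higher. The ATF4 gene averaged 520 CPM ± 160 in parental libraries (SD, n = 4) and 478 CPM ± 115 in restored-labelled ones (SD, n = 4).

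Cytosolic aminoacyl-tRNA synthetases, which load amino acids onto tRNA, were all tested (20 genes, median -0.16). In the full fit 4 fell and 1 rose (25% of the list, beside 19.2% of all genes). SARS1 (-1.04, SE 0.16), AARS1 (-0.72, SE 0.14) and FARSB (-0.52, SE 0.11) fell (edgeR adjusted p = 0.0020, 0.00560 and 0.0109). LARS1, the leucine enzyme, rose (0.46, SE 0.12), a call lost without parental replicate 2, 3 or 4 or restored-labelled replicate 3 or 4 (0.38 to 0.48). YARS1 fell too (-0.48, SE 0.13), a call lost when any 1 of replicates 2, 3 and 4 of either group was left out (-0.49 to -0.41). The count of called genes was 3 without parental replicate 2 or 3 or restored-labelled replicate 3 or 4.

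The mTORC1 amino acid sensing list had 26 tested genes of 27 and a median of -0.06, with 2 higher and 2 lower (15.4% of those tested, below the 19.2% of all genes). Besides SLC38A9, the GTPase gene RRAGB rose (0.56, SE 0.16) and the complex subunits MLST8 (-0.44, SE 0.12) and LAMTOR5 (-0.50, SE 0.14) fell. No gene of this list was called without parental replicate 2 or without restored-labelled replicate 4, and 2 were without parental replicate 3 or restored-labelled replicate 3. RRAGB was lost without parental replicate 2, 3 or 4 or restored-labelled replicate 3 or 4 (0.48 to 0.57). MLST8 was lost without parental replicate 2, 3 or 4 or restored-labelled replicate 2 or 4 (-0.46 to -0.40). LAMTOR5 was lost without parental replicate 2 or 3 or restored-labelled replicate 2, 3 or 4 (-0.52 to -0.42).

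Of 17 genes for glutamine and branched-chain amino acid metabolism, 15 were tested (median -0.05), and 4 fell and 0 rose (26.7%). Among all genes 19.2% were called in either direction and 8.77% were called lower. GPT2, a mitochondrial alanine transaminase, fell from 150.4 to 87.3 CPM (-0.78, SE 0.16, edgeR adjusted p = 0.00814). GOT1 (-0.59, SE 0.14), BCKDK (-0.43, SE 0.11) and DBT (-0.56, SE 0.16) were called in the full fit. Without parental replicate 2, restored-labelled replicate 3 or restored-labelled replicate 4 only 1 gene of the list was called, and GOT1 was lost in each of these refits (-0.60 to -0.50). BCKDK was lost without parental replicate 2 or 4 or restored-labelled replicate 3 or 4 (-0.45 to -0.39), and DBT without parental replicate 2 or restored-labelled replicate 2, 3 or 4 (-0.54 to -0.50).

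Among 9 regulators known to act on these transporters 7 were tested, and edgeR called 0, beside 19.2% of all genes tested. With so few genes, nothing is read from that count. It was 1 at an unadjusted p under 0.05 in edgeR, 0 with DESeq2 and 0 with limma-voom. MYC averaged 63.8 CPM ± 20.7 in parental libraries (SD, n = 4) and 50.9 CPM ± 11.3 in restored-labelled ones (SD, n = 4), a log2 fold change of -0.32 (SE 0.24). Without both libraries of replicate 1, MYC (-0.57) and EPAS1 (-0.74) were called lower, and without the expression filter HIF1A was called higher (0.72). HIF1A had a log2 fold change of 0.70 (SE 0.29), EPAS1 of -0.35 (SE 0.24), NEDD4L of -0.26 (SE 0.13), SGK1 of 0.44 (SE 0.45), SGK3 of -0.08 (SE 0.19) and NEDD4 of 0.00 (SE 0.24). The oestrogen receptor gene ESR1, known to regulate SLC6A14 in breast cells, had 0 counts in all 8 libraries, as did MYCN.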

How the data were processed

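RNA of 8 libraries was sequenced. The authors deposited raw counts per gene, not normalized, as the whole numbers and differing totals show. The submitters' processing notes name fastp 0.23.1, STAR 2.7.4 and GRCh38; the counting program, annotation and use of strand are not given in the sources used here. Columns were matched to samples by the names in the labels, and 57943 of 58206 identifiers were found in GENCODE 29 (GRCh38), which gave positions and exon lengths.

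The test used edgeR 4.0.16 under R 4.3.3: filterByExpr (minimum count 10), TMM scaling, and the quasi-likelihood test of restored-labelled against parental libraries without covariates, adjusted by Benjamini-Hochberg over 14289 genes (threshold 0.05). Each standard error was taken from the log2 fold change and its F statistic. CPM use scaled totals of tested genes, and CPM per kb the union of exons. Log2 CPM for principal components and likeness used a prior count of 2. On counts simulated with 200 changed genes and independent noise, edgeR recovered 97.1% of 4-fold and 62.2% of 2-fold changes among 14088 genes. Of its calls, 3.61% were false. DESeq2, an alternative here, recovered 98.0% and 72.4% among 14289 genes, with 13.2% of its calls false. The real counts had 2738 genes called and libraries of replicate 1 that stood apart, so these rates need not carry over.

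Members and lists were chosen with earlier results of these data known. Named genes are all members, the 4 genes of each list with the smallest p-value (all tested regulators), AXIN1, the genes adjoining a member and the 5 most like SLC6A14. Promoters for 10 of 10 members came from RefSeq, with the first start listed for each. Alternatives were no filter, a mean of at least 1 CPM, total counts only, upper-quartile scaling, size factors of DESeq2, DESeq2 1.42.0, limma-voom (limma 3.58.1), a replicate block, a threshold of 0.01 and leaving out each library. Leaving out both libraries of replicate 1 was added after seeing the data.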

Additional observations from a re-analysis of the deposited data

Results flagged for a closer look

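In each group of 4 libraries, a value was picked out when its gap to the nearest other passed Dixon's critical value at the 95% level, which chance gives in about 1 of 20 groups. Of 79 group values of members and named genes, 6 did so. Restored-labelled replicate 1 was the outlying library in 4 of them: SLC7A5 at 1154 CPM against 672 to 731 CPM in the other 3, SLC7A7 at 17.29 CPM against 10.4 to 11.6, SFXN3 at 76.91 CPM against 46.9 to 51.2, and ALDH1L2 at 9.398 CPM against 1.49 to 1.91. SLC1A5 was low in parental replicate 3, at 876.7 CPM against 958 to 969 CPM. LAMTOR5 was low in parental replicate 4, at 73.07 CPM against 91.2 to 93.5 CPM.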

How the results depend on the processing

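The number of members called stayed at 1 except without the expression filter (2), without both libraries of replicate 1 (5) and with 1 library left out (range 1 to 3). The number of all genes called was 964 at an adjusted p under 0.01, 4623 without both libraries of replicate 1, and 1394 to 3523 with 1 library left out. At an adjusted p under 0.01 the counts were 5 for the other amino acid transporters, 0 for the ATF4 response, 2 for the synthetases, 0 for mTORC1 sensing and 1 for glutamine and branched-chain metabolism. With the replicate block they were 3, 3, 2 and 2 for the last 4 lists. Same-numbered libraries deviated together with correlations of only -0.06 to 0.23, which cannot show whether equal numbers mark paired samples. Total counts only gave 3 for the ATF4 response and 2 for glutamine and branched-chain metabolism, DESeq2 gave 8 for the synthetases and 8 for mTORC1 sensing, and no filter gave 1 regulator. Without both libraries of replicate 1 the counts were 4 for mitochondrial carriers, 11 for the ATF4 response and 2 for regulators. Leaving out 1 library gave ranges of 5 to 11 (other transporters), 2 to 6 (ATF4), 3 to 6 (synthetases), 0 to 6 (mTORC1) and 1 to 4 (glutamine and branched-chain). The cause was not tested. Total counts only moved the median log2 fold change of all genes to 0.086, and values near 0 turned sign with it and elsewhere. The log2 fold change of SLC38A1 was 0.068 with total counts only, 0.017 without a filter, 0.018 with limma-voom, 0.019 with the replicate block and -0.16 to 0.10 with 1 library left out. The log2 fold change of NEDD4 was 0.0705, 0.022, 0.035 and 0.016 in the same 4 refits and -0.19 to 0.14 with 1 library left out. The log2 fold change of SGK3 was 0.010 with total counts only, 0.14 without both libraries of replicate 1 and -0.17 to 0.042 with 1 library left out, the log2 fold change of SGK1 was -0.026 without both libraries of replicate 1, and the log2 fold change of SLC1A4 was -0.27 to 0.032 with 1 library left out. Depth limits SLC38A4, whose counts did not exceed 3.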
